A study of Mus musculus with 20 samples.

Results

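The genes described here are the glucocorticoid receptor gene Nr3c1 and 8 genes known as glucocorticoid targets, namely Fkbp5, Dusp1, Tsc22d3, Sgk1, Per1, Zbtb16, Mt1 and Mt2, 9 of 21887 protein-coding genes in all. Sites were taken from 5 peak lists of C/EBPβ, an adipogenic transcription factor, mapped by ChIP-seq in 3T3-L1 cells, mouse preadipocytes. Peaks of the 5 lists that overlapped by at least 1 bp were merged into 23854 sites, and a site belonged to a gene if a peak in it had its midpoint inside the gene's span or within 50 kb of it. This gave 42 member sites holding 133 of 66428 peaks, with a single peak per list at each site. In the condition called WT −Dox, cells carrying a doxycycline-inducible wildtype C/EBPβ received vehicle. In Mut −Dox, cells with an inducible form mutated at its PARylation sites, where PARP enzymes attach ADP-ribose, received vehicle. WT +Dox and Mut +Dox are the same cells after 1 µg/ml doxycycline for 8 h, and WT +Dox +BYK adds the PARP inhibitor BYK204165 from 1 h before doxycycline. Each condition had 2 ChIP and 2 input libraries, but only 1 deposited peak list, which names no replicate. Differences between conditions could thus not be set against replicate spread, and none was tested. All cells had been kept at confluence under contact inhibition, and no glucocorticoid is named in the treatments. The antibody was raised against C/EBPβ and the untreated cells also gave peaks, so a list cannot separate the induced protein from the cells' own, and the labels do not say whether the lines were clones or pools. Peak lists hold no expression values, so the cell type could not be checked against markers, nor could the genes' RNA be described.

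The glucocorticoid receptor is a nuclear receptor that waits in the cytoplasm with heat shock chaperones, binds cortisol or corticosterone, moves to the nucleus and binds DNA as a dimer at inverted repeats of a short element. Its direct targets include genes that end signalling by inflammatory kinases, a clock gene, metal-binding proteins and an immunophilin that lowers the receptor's own hormone affinity. In adipocyte differentiation a glucocorticoid is a standard part of the inducing cocktail, and C/EBPβ rises early in the same programme.

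Upstream sequences are shown for the 4 promoters that a C/EBPβ peak reached and for 1 promoter of Sgk1 that holds a full receptor element without a peak. Each is the 250 bases before a RefSeq start site (GRCm38.p6, the coordinates of mm10, plus strand), and 7 of the 9 genes had a promoter entry. Capitals mark matches to searched motifs on either strand: the C/EBP palindrome TTGCNCAA, its looser core TTNNGNAA, the nuclear factor I element TTGCCAA, the receptor hexamer TGTTCT with its reverse AGAACA, and the AP-1 element TGANTCA. Positions count back from the start site.
Per1 promoter 1 (chr11:69098699-69098948, peak in all 5 lists): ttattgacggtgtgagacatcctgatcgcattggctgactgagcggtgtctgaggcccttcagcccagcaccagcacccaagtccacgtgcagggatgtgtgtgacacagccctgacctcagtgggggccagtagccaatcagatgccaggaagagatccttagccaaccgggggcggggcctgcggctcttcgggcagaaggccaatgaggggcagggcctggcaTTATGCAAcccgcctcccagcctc
Sgk1 promoter 4 (chr10:21991973-21992222, peak in all 5 lists): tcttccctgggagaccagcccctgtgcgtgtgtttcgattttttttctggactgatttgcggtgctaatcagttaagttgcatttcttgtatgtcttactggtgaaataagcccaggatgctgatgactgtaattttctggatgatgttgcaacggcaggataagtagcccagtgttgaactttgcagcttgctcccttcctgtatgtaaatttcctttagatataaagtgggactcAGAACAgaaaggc
Sgk1 promoter 5 (chr10:21993640-21993889, no peak): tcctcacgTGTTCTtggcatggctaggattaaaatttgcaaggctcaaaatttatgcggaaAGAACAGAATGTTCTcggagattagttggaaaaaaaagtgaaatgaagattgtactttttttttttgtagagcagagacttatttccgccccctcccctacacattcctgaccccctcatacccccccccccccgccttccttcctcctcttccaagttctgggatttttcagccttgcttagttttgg
Mt1 promoter 1 (chr8:94178839-94179088, peak in every list but Mut −Dox): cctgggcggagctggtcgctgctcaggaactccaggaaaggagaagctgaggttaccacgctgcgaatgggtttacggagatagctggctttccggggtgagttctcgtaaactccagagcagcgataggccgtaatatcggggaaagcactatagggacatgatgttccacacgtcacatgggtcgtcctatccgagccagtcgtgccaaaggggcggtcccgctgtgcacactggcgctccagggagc
Mt2 promoter 1 (chr8:94172368-94172617, peak in the Mut +Dox list only): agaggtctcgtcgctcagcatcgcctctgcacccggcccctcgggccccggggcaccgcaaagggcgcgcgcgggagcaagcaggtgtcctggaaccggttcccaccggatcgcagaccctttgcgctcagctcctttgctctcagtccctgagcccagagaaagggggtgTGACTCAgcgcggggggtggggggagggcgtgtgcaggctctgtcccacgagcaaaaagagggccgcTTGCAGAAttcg

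The Per1 upstream sequence held only the looser core, TTATGCAA at -24 to -17. That core is a weak mark, since 40.7% of all 32851 mouse promoter windows held it. The share was 51.9% of the 647 windows under a site found in all 5 lists. Windows, here and below, run from 250 bases before to 50 after the start, so they are longer than the sequences shown. No member promoter under a peak held the full palindrome TTGCNCAA, which occurred in 2.94% of all windows and in 12.5% of those 647. The Mt2 sequence carried the AP-1 element TGACTCA at -79 to -73, an element found in 7.81% of all windows. It also held the looser core TTGCAGAA at -12 to -5. The Mt1 sequence held no match to any of these motifs. The Sgk1 sequence under a peak held a single receptor hexamer, AGAACA at -13 to -8, which 19.0% of all windows held in one orientation or the other. The neighbouring Sgk1 promoter held the perfect inverted repeat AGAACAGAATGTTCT at -189 to -175, in which AGAACA and TGTTCT stand 3 bases apart. That exact repeat occurred in 3 of 32851 windows (0.00913%), the others belonging to Acnat2 and Gm35041, and in 0 of the 647 under shared sites. Its window overlapped no C/EBPβ peak in any list, and the nearest member site lay 1.11 kb away.

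All 9 genes had at least 1 C/EBPβ site, against 61.0% of protein-coding genes. The genes differed in how much of their set was constant. Over the full lists, Per1 and Tsc22d3 had the same sites in all 5, whereas Nr3c1 and Dusp1 had no site common to all 5 and none at all in the Mut −Dox list. The other 5 genes lay between, with 2 or 3 constant sites each. In total 7 of 9 genes had a site found in every list, against 45.7% of the protein-coding genes that had any site. Such shares of genes, here and below, are not matched for site number. In WT −Dox the members had a mean of 3 sites, against 0.816 per protein-coding gene. A gene with more sites has more chances to hold a constant one or to change.

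**Figure D1:**
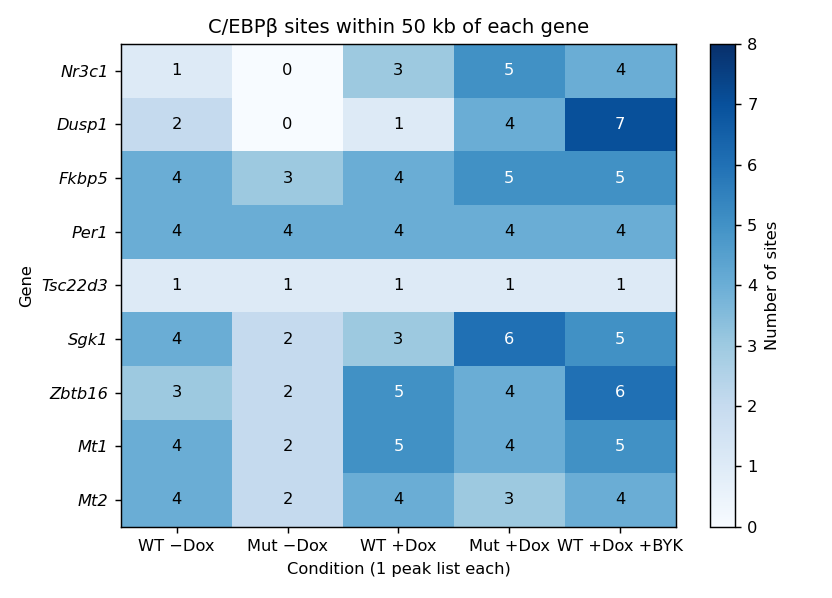
Number of C/EBPβ sites within 50 kb of each of the 9 genes (rows) in each of the 5 peak lists (columns), written in the cells and shaded from few to many. Per1 has 4 in every list, Dusp1 runs from 0 in Mut −Dox to 7 in WT +Dox +BYK, and Nr3c1 from 0 to 5.

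The lists differ in length, which bears on every count. Taken as WT −Dox, Mut −Dox, WT +Dox, Mut +Dox and WT +Dox +BYK, the order kept for all rows of 5 values below, they held 10959, 6898, 12384, 17816 and 18371 peaks. Of the 42 member sites, the first list held 23 (54.8%, Wilson 95% interval 39.9 to 68.8). The second held 14 (33.3%, 21.0 to 48.4), and WT +Dox held 26 (61.9%, 46.8 to 75.0). Mut +Dox had 33 (78.6%, 64.1 to 88.3) and WT +Dox +BYK had 37 (88.1%, 75.0 to 94.8). The corresponding shares of all sites were 45.5%, 28.8%, 51.5%, 74.5% and 76.4%, so the member sites followed the order of the list lengths. These intervals cover counting error only, and neighbouring sites are not independent.

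Nr3c1 encodes the receptor itself. It had 6 sites, of which 1, 0, 3, 5 and 4 were present in the 5 lists. The 3 lists from doxycycline-treated cells held more sites than the lists from vehicle-treated cells, and 4 of the 6 sites lay inside the gene. The site with the most lists was Nr3c1 site 1 at chr18:39441946-39443002, inside the gene, whose peak scored 82.6 in WT −Dox, 126 in the WT +Dox list, 231 in that of Mut +Dox and 104 in that of WT +Dox +BYK. Scores are the authors', start at about 50 in each list, and serve here only for ranks among the peaks of one list. Site 1 stood at percentile 38.4, 62.3, 79.1 and 49.3 of those lists in the same order, so it passed percentile 75 in the mutant list alone. Nr3c1 site 3, at chr18:39479639-39481615, was shared by Mut +Dox (score 113) and WT +Dox +BYK (score 95.6) and missing from the other lists. Nr3c1 site 4 had the same 2 lists, with a score of 52.0 in Mut +Dox, close to the lowest there, and of 71.8 with the inhibitor, at percentile 27.5. Nr3c1 site 2 was found only in WT +Dox (score 61.1), and site 5 only in Mut +Dox (score 64.7). Nr3c1 site 6 lay 44.1 kb beyond the higher-coordinate end of the gene and was found in the 3 doxycycline lists, with scores of 69.1 in the WT +Dox list, 88.3 in that of Mut +Dox and 109 in that of WT +Dox +BYK. When each list was cut to its 6898 highest-scoring peaks, the length of the shortest, the counts of Nr3c1 were 1, 0, 1, 1 and 0.

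Fkbp5 encodes the immunophilin FKBP51, a co-chaperone that lowers the receptor's affinity for hormone and is itself induced by the receptor. Its 6 sites gave counts of 4, 3, 4, 5 and 5. The counts span a narrow range because 3 sites were present in every list. The strongest of them, Fkbp5 site 4 at chr17:28438349-28439502, lay inside the gene, 47.2 kb downstream of its start site, with scores of 459, 503, 216, 405 and 346. It stood at percentile 94.7, 95.5, 81.9, 91.5 and 89.1, above percentile 80 in each list. Fkbp5 site 1, at chr17:28393981-28395037 and 4.24 kb beyond the 3′ end of the gene, scored 181, 115, 152, 181 and 315. It was above the middle of every list, at percentiles 74.4, 56.8, 70.1, 71.6 and 87.2. Fkbp5 site 3, at chr17:28416153-28417093, was weaker, with scores of 88.1, 83.0, 51.8, 70.9 and 135, and in WT +Dox it was close to the lowest score in the list. The remaining 3 sites were less constant. Fkbp5 site 2 was present in the 3 doxycycline lists, site 5 in WT +Dox +BYK only, and site 6, 16.5 kb upstream of the start site, in WT −Dox (score 105) and Mut +Dox (score 53.8). The promoter window of Fkbp5 was 15.8 kb from the nearest peak. Its counts at equal list length were 4, 3, 2, 2 and 2.

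Dusp1 encodes a phosphatase that switches off MAP kinases and is a well-known anti-inflammatory target of glucocorticoids. It had 8 sites, the most of the 9 genes, with 2, 0, 1, 4 and 7 present in the 5 lists. No site occurred in all lists, and most were near the floor of the score. Only Dusp1 site 7, at chr17:26512160-26513667 and 4.44 kb upstream of the start site, was present in 4 lists. It scored 79.2 in WT −Dox, 70.5 in the WT +Dox list, 123 in that of Mut +Dox and 175 in that of WT +Dox +BYK. It stood at percentile 35.9, 27.8, 56.6 and 71.0 of these lists, thus below the middle of both wildtype lists without inhibitor and above it in the other 2. Dusp1 site 8, 6.43 kb upstream, was found in WT +Dox +BYK only, with a score of 122. Dusp1 site 5 was the one inside the gene, 1.05 kb downstream of the start, and scored 67.5 in Mut +Dox and 73.9 in the inhibitor list. The other Dusp1 peaks scored between 52.1 and 73.9. Only 3 of its 14 peaks scored at least 100, none of them in WT −Dox, Mut −Dox or WT +Dox, so the counts of this gene rest largely on weak peaks. Cut to equal length, the lists held 0, 0, 0, 0 and 1 of its sites.

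Tsc22d3 encodes GILZ, the glucocorticoid-induced leucine zipper protein, which restrains inflammatory signalling. It had 1 site, at chrX:140544512-140545371 inside the gene and 2.27 kb upstream of its nearest annotated start, present in all 5 lists. The scores were 151, 69.8, 104, 159 and 146. The corresponding percentiles were 67.7, 28.5, 52.9, 67.2 and 64.3, so the peak ranked below the middle only in Mut −Dox. It stayed in all 5 lists at equal length, but Mut −Dox lacked it when a score of at least 100 was required.

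Sgk1 encodes a kinase that regulates ion channels and cell survival and responds quickly to corticosteroids. Its 6 sites gave counts of 4, 2, 3, 6 and 5, and Mut +Dox was the only list with all of them. Sgk1 site 6, at chr10:21991196-21992530, covered the promoter whose upstream sequence is shown as Sgk1 promoter 4. It scored 174, 99.6, 121, 199 and 176, at percentiles 73.0, 49.9, 60.6, 74.9 and 71.4, and was thus in the upper part of every list but Mut −Dox, where it was at the middle. Sgk1 site 1, at chr10:21833200-21834382 and 48.4 kb upstream of the first start site, was the other constant site, with scores of 87.3, 124, 76.9, 178 and 130. Its rank was above the middle in Mut −Dox, Mut +Dox and WT +Dox +BYK and below it in the wildtype lists without inhibitor (percentiles 41.5, 60.4, 33.9, 71.1 and 59.7). Sgk1 site 4, inside the gene at chr10:21926135-21927233, was missing from Mut −Dox and scored 105 in WT −Dox, 88.3 in the WT +Dox list, 236 in that of Mut +Dox and 120 in that of WT +Dox +BYK. Sgk1 site 3 lay 35.0 kb upstream of the first start and had a peak in 3 lists, with scores of 70.6 (WT −Dox), 69.3 (Mut +Dox) and 138 (WT +Dox +BYK). It was the one Sgk1 site present before doxycycline in wildtype cells and missing after it. Sgk1 site 2 was shared by Mut +Dox and WT +Dox +BYK, and site 5 was in Mut +Dox alone. At equal length the counts of Sgk1 were 3, 2, 1, 3 and 1.

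Per1 encodes a repressor of the circadian clock that glucocorticoids induce directly. It had 4 sites and each of them was present in all 5 lists, so the count over the full lists was 4 throughout. It was not constant on stronger peaks, with 2, 4, 2, 2 and 4 sites at equal list length and 2, 2, 2, 4 and 4 at a score of at least 100. Per1 site 3, at chr11:69098403-69099479, covered the start site whose upstream sequence is shown as Per1 promoter 1. Its scores were 396, 280, 324, 379 and 476, at percentiles 92.7, 86.6, 91.5, 90.2 and 94.2, near the top of every list. Per1 site 2, at chr11:69094124-69095650 and 4.06 kb upstream, scored 203, 113, 153, 250 and 269, also above the middle of every list (percentiles 78.1, 56.0, 70.2, 81.3 and 83.3). The outer sites were weaker. Per1 site 1, at chr11:69073242-69074915 and 24.9 kb upstream, scored 64.1, 51.5, 81.1, 107 and 179, and Per1 site 4, at chr11:69123185-69124421 and 23.7 kb downstream of the start, scored 78.4, 58.0, 87.2, 114 and 154. Both ranked below percentile 20 in the Mut −Dox list and at or above the middle of the Mut +Dox and WT +Dox +BYK lists. These outer sites belong as much to other genes, since site 1 lay 0.785 kb from Tmem107 and site 4 lay inside Hes7. Counting each site only for its nearest gene left Per1 with 2 in every list.

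Zbtb16 encodes PLZF, a zinc finger repressor that glucocorticoids induce in many cells. Its 6 sites gave counts of 3, 2, 5, 4 and 6. The strongest peak of all the members was Zbtb16 site 3, at chr9:48617409-48619262, with scores of 655, 436, 598, 794 and 935 at percentiles 98.0, 93.9, 98.4, 98.6 and 99.2. It was among the highest peaks of each list, but it lay 33.5 kb from Zbtb16 and 10.7 kb from Nnmt, a methyltransferase gene. Zbtb16 site 1, at chr9:48604708-48605853, and site 2, at chr9:48605885-48606867, lay inside Nnmt. They nearly touched, and merging peaks within 500 bp joined them. Site 1 was constant, with scores of 70.2, 56.8, 112, 150 and 91.4 at percentiles 27.8, 11.5, 56.8, 64.8 and 42.5. Site 2 was missing from Mut −Dox and scored 79.3 in WT −Dox, 315 in the WT +Dox list, 324 in that of Mut +Dox and 400 in that of WT +Dox +BYK. It ranked at percentile 36.0 of the WT −Dox list and at 91.0, 87.2 and 91.7 of the doxycycline lists. The sites inside Zbtb16 were all absent from both lists of vehicle-treated cells. Zbtb16 site 4 scored 68.5 in WT +Dox and 56.1 in WT +Dox +BYK, site 5 scored 57.6 and 122 in those lists, and site 6 scored 75.3 in Mut +Dox and 50.5 in the inhibitor list. By nearest gene, Zbtb16 kept only these, with counts of 0, 0, 2, 1 and 3. All its sites together gave 1, 2, 3, 3 and 2 at equal list length.

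Mt1 and Mt2 encode metallothioneins, small cysteine-rich proteins that bind zinc and copper and are induced by metals and glucocorticoids. The genes are neighbours on chromosome 8 and share 4 of their sites, so they are not independent of each other. Mt1 had 5 sites with counts of 4, 2, 5, 4 and 5, and Mt2 had 4 sites with counts of 4, 2, 4, 3 and 4. Site 1, at chr8:94170768-94173001 just upstream of the Mt2 start, scored 152, 84.9, 220, 182 and 492, at percentiles 67.9, 41.0, 82.5, 71.9 and 94.7. Site 4, at chr8:94194465-94195548 and 15.9 kb downstream of the Mt1 start, scored 213, 156, 390, 200 and 373, at percentiles 79.8, 69.2, 94.3, 75.0 and 90.6. Both constant sites ranked higher within the WT +Dox and WT +Dox +BYK lists than within the other 3. Site 2, at chr8:94178672-94180315, lay over Mt1 itself and its promoter, was missing from Mut −Dox, and was weak, with scores of 59.7, 94.2, 61.0 and 51.2 in the other lists. Site 3, at chr8:94182813-94183783, was found in the 3 wildtype lists and in neither mutant list, with scores of 116 in WT −Dox, 78.6 in WT +Dox and 62.5 in WT +Dox +BYK. It was the only one of the 42 sites with that pattern (2.38%, against 0.897% of all sites). Mt1 site 5, at chr8:94226944-94228420 inside Nup93 and 47.4 kb beyond Mt1, was present in the doxycycline lists alone, scoring 110, 65.5 and 103. Mt1 had 3, 2, 4, 2 and 2 sites and Mt2 had 3, 2, 3, 2 and 2 at equal list length.

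**Figure D2:**
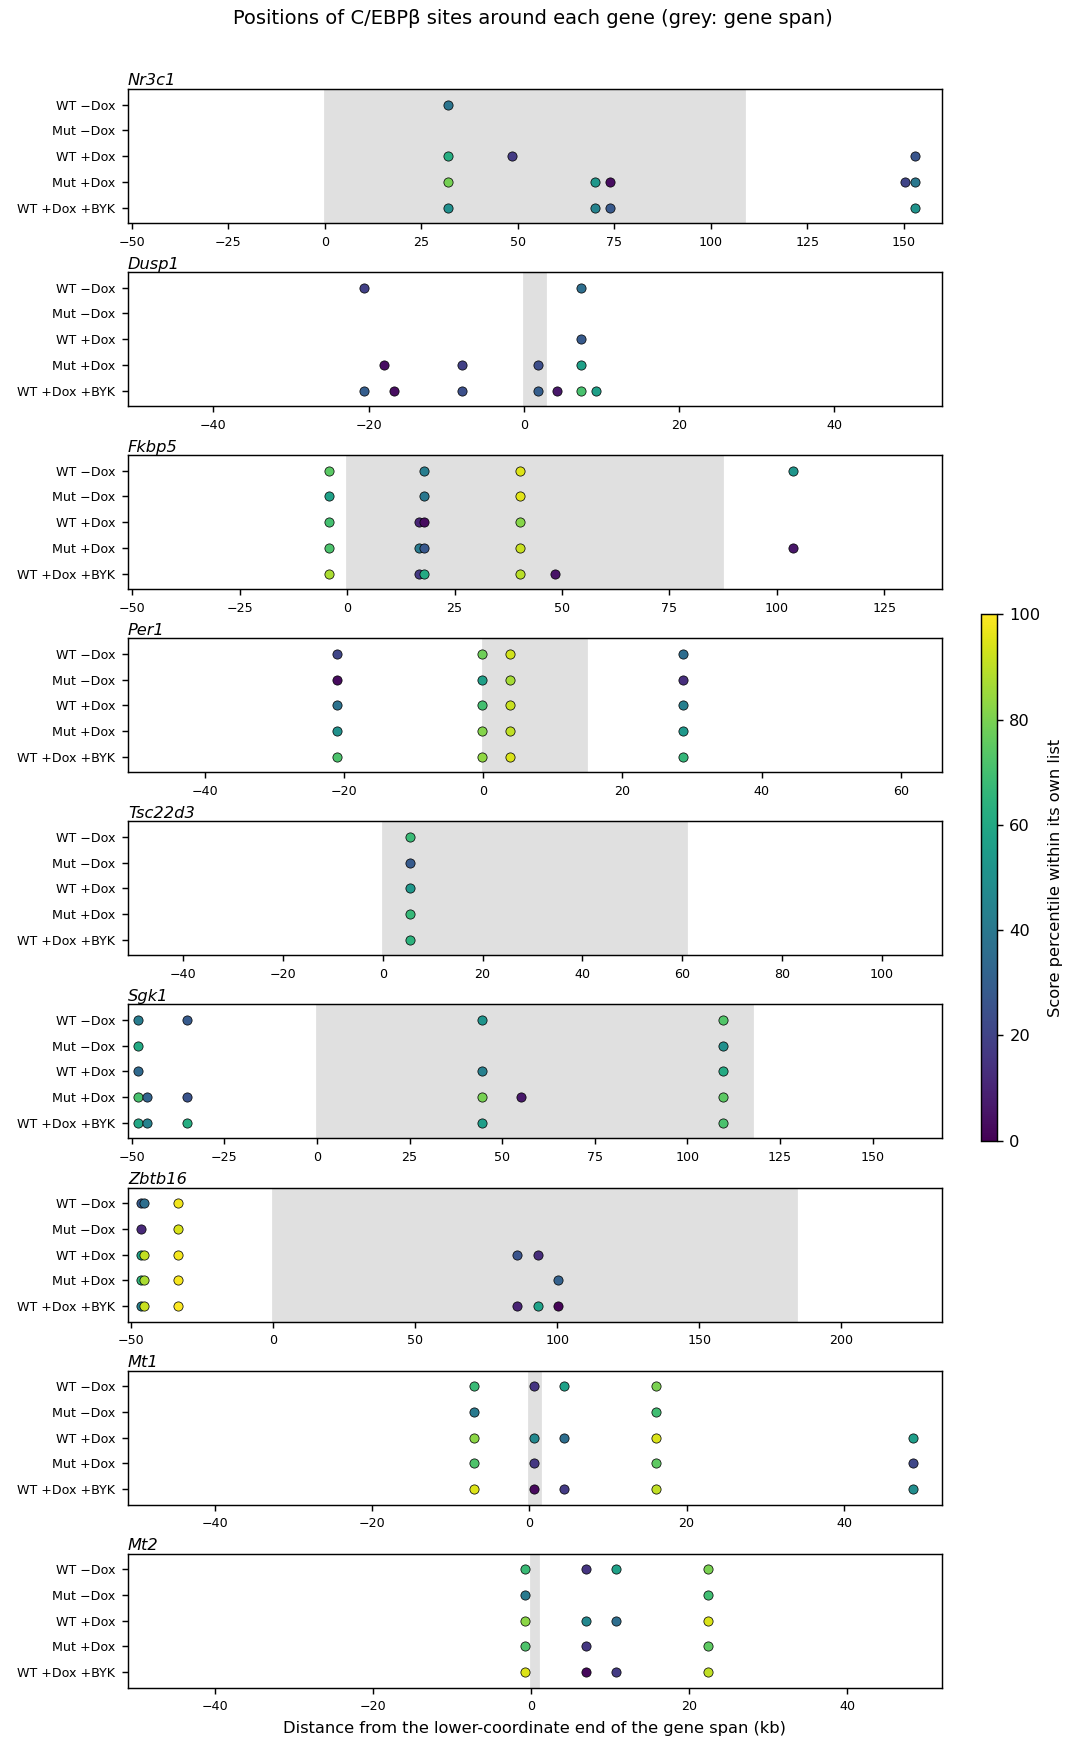
Position of every C/EBPβ site by gene and list, as the distance in kb from the lower-coordinate end of the gene span (grey bar), with each point coloured by the percentile of its score within its list. Per1 shows 4 full columns of points and Dusp1 a spread of sites filled mainly in Mut +Dox and WT +Dox +BYK.

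Of the 42 sites, 18 lay inside a member gene and 24 outside. The gene table gave whole spans, so exons, introns and UTRs are not separated here. A member was the nearest protein-coding gene at 36 of them, and 4 lay inside another gene, namely those in Nnmt (2), Hes7 and Nup93. Another protein-coding gene was within 50 kb at 19 sites. Promoter windows of members were overlapped by 4 sites, at Per1, Sgk1, Mt1 and Mt2. Nr3c1 and Zbtb16 had no promoter entry, so their sites could not be counted there. No share over all sites stands beside these position counts, so they cannot be called high or low.

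The most common pattern was presence in all 5 lists, with 14 sites (33.3%, against 21.8% of all sites). Sites found in only 1 list numbered 8 (19.0%, against 30.7%). The 14 constant sites were also the whole of the Mut −Dox set, since each of its 14 member sites recurred in the other 4 lists, whereas 75.9% of all 6866 sites in Mut −Dox did. A group of 6 sites was present in Mut +Dox and WT +Dox +BYK only (14.3%, against 10.1% of all sites), namely Nr3c1 sites 3 and 4, Dusp1 sites 4 and 5, Sgk1 site 2 and Zbtb16 site 6. A further 5 were missing from Mut −Dox alone (11.9%, against 9.51%), at Nr3c1, Dusp1, Sgk1, Zbtb16 and Mt1, the last shared with Mt2. The lists of doxycycline-treated cells had 19 sites of their own (45.2%, against 51.5%), and those of vehicle-treated cells 0 (against 4.03%). Constant sites were wider, with a median of 1168.5 bp against 848.5 bp for sites in 1 list, and width and number of lists are linked in part because a merged site takes the extent of all its peaks.

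**Figure D3:**
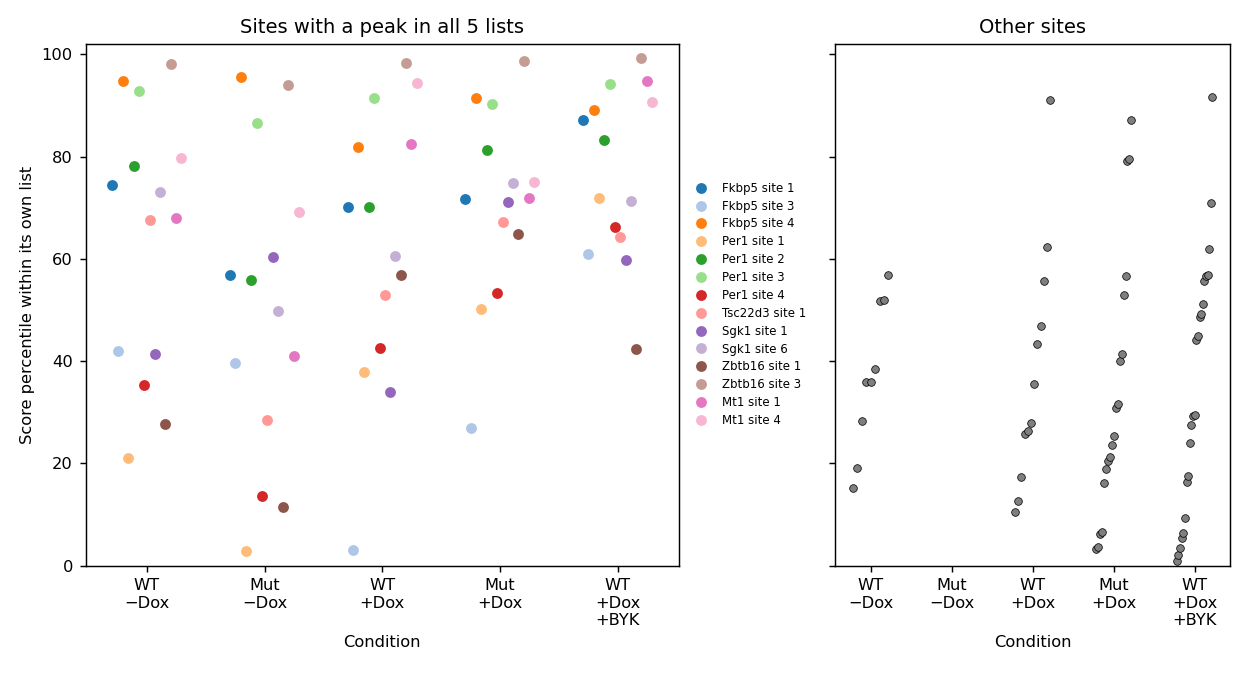
Percentile of each peak's score within its own list (0 lowest, 100 highest), for the 14 member sites present in all 5 lists (left, coloured by site) and for the other 28 (right). Zbtb16 site 3, Per1 site 3 and Fkbp5 site 4 stay above percentile 80, and the Mut −Dox list has no points on the right because all its member sites are constant ones. Ranks in lists of different length do not measure a change.

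As a whole, member peaks did not stand high or low in their lists. Their median percentile was 51.8, 52.9, 49.8, 52.9 and 55.7. Peaks at percentile 90 or above numbered 3, 2, 4, 3 and 5 in the same order.

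In wildtype cells the lists without and with doxycycline were set side by side, though neither separates induced C/EBPβ from the cells' own. The lists of WT −Dox and WT +Dox shared 20 member sites, with 3 found only before and 6 only after. The later list thus held 66.7% of the sites found in 1 of them (exact binomial 95% interval 29.9 to 92.5), against 60.2% over all sites. At equal list length the share was 44.4% (4 of 9), below an even split. Cutting lists to equal length brings this share near an even split over all sites by construction. Nr3c1, Zbtb16 and Mt1 had more sites after doxycycline and Dusp1 and Sgk1 had fewer, 3 and 2 of 9 genes, against 30.1% and 18.6% of the 13358 protein-coding genes with a site, the base of all such shares of genes below. The fall at Dusp1 and Sgk1 was not seen with windows of 10 or 100 kb, where both had equal counts in the 2 lists. The highest-scoring site found only after doxycycline was Mt1 site 5 (110), and the highest found only before was Fkbp5 site 6 (105). Of the 6 sites found only after, 1 ranked above the middle of the WT +Dox list.

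In cells with the PARylation-site mutant, the lists before and after doxycycline shared 14 member sites and a further 19 were found only after. The later list held 100% of the sites in 1 of them (82.4 to 100), against 95.4% over all sites. That share too counts only sites found in 1 of the 2 lists, so this direction was common to the whole data. At equal list length the split was even, at 50% (3 of 6). All genes but Per1 and Tsc22d3 had more sites after doxycycline, 7 of 9, against 63.5% with more and 2.70% with fewer among genes with a site. The top site found only after was Zbtb16 site 2 (324, percentile 87.2), and 5 of the 19 ranked above the middle of the Mut +Dox list. That top site lies inside Nnmt, beside the constant Zbtb16 site 1. Merging peaks within 500 bp joined the 2 sites, and the change at Zbtb16 fell from 2 to 1.

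The lists of the mutant and wildtype lines after doxycycline were also set side by side. The 2 lines' lists already differed without doxycycline, so an effect of the mutation cannot be told apart from that difference. The 2 lists shared 22 member sites, 4 were found only in WT +Dox and 11 only in Mut +Dox. Mut +Dox thus held 73.3% of the sites in 1 of them (44.9 to 92.2), against 82.2% over all sites. At equal list length this split was even too, at 50% (2 of 4). Nr3c1, Dusp1, Fkbp5 and Sgk1 had more sites in Mut +Dox, 4 of 9, against 40.6% of genes with a site. Zbtb16, Mt1 and Mt2 had fewer, 3 of 9 against 12.2%, but Mt1 and Mt2 lost the same single site. The highest-scoring Mut-only site was Nr3c1 site 3 (113), and the highest WT-only site was Mt1 site 3 (78.6).

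The PARP inhibitor gave the related comparison in wildtype cells, and it shares the WT +Dox list with the previous one. Both lists held 25 member sites, with 1 found only without inhibitor and 12 only with it. The inhibitor list held 92.3% of the sites in 1 of them (64.0 to 99.8), against 84.8% over all sites. At equal list length, where the cut itself brings the share over all sites near an even split, the members' share was 42.9% (3 of 7). Nr3c1, Dusp1, Fkbp5, Sgk1 and Zbtb16 had more sites with the inhibitor, 5 of 9 against 49.0% of genes with a site, and 0 of 9 had fewer, against 8.29%. At equal length the changes of Nr3c1 and Zbtb16 became -1 each. The top site found only with the inhibitor was Sgk1 site 3 (138), and the one found only without it was Nr3c1 site 2 (61.1). Set side by side, the change in sites from WT +Dox to Mut +Dox and to WT +Dox +BYK was 3 and 6 at Dusp1, 3 and 2 at Sgk1, 2 and 1 at Nr3c1, and 1 and 1 at Fkbp5. The count of Zbtb16 moved in opposite directions in the 2 comparisons, with a change of -1 in the mutant and 1 with the inhibitor.

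The lists of the vehicle-treated lines differed before any induction. WT −Dox and Mut −Dox shared 14 member sites, 9 were found only in WT −Dox and 0 only in Mut −Dox. Mut −Dox therefore held 0% of the sites in 1 of them (0 to 33.6), against 13.2% over all sites. At equal list length it held 42.9% (3 of 7). All genes but Per1 and Tsc22d3 had fewer sites in Mut −Dox, 7 of 9 against 39.4% of genes with a site, and 0 had more, against 4.50%. These shares too are not matched for site number. With peaks within 500 bp merged, the change at Zbtb16 was 0. The highest-scoring site missing from Mut −Dox was Mt1 site 3 (116). The comparisons between the lines with doxycycline, and the change within the mutant line, start from this difference between lists. It was not tested, and Mut −Dox is the shortest list, with 6898 peaks.

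**Figure D4:**
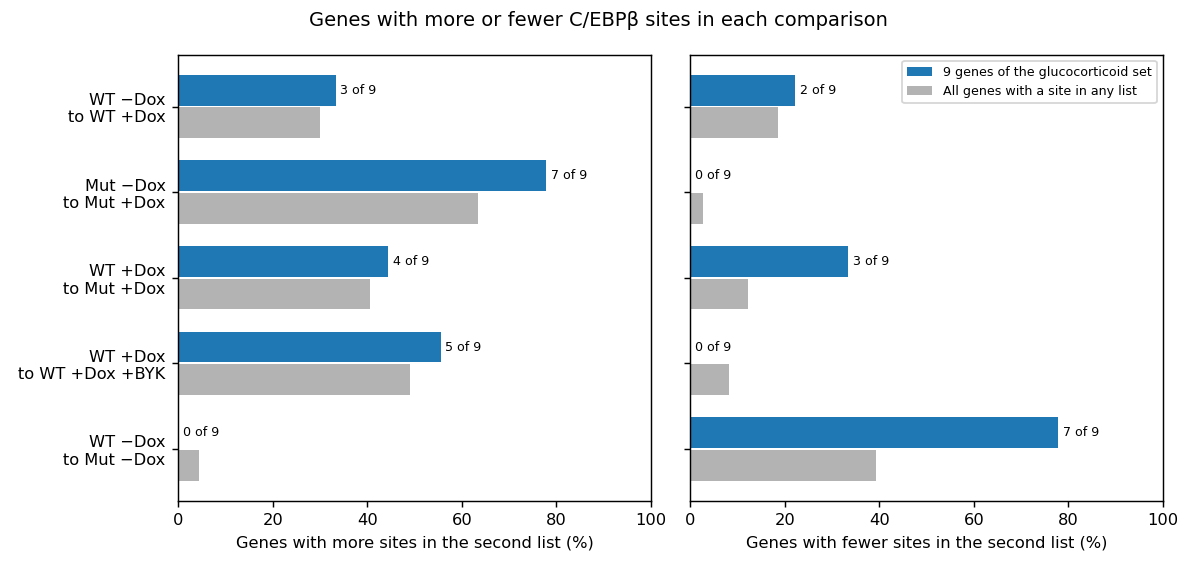
Share of genes with more sites (left panel) and fewer sites (right panel) in the second list of each comparison, in percent, for the 9 members (blue) and for the 13358 protein-coding genes with a site (grey). The members' bars rest on 9 genes, of which Mt1 and Mt2 share sites, and in each comparison the commoner direction is the same for both sets. The grey genes are not matched to the members for site number.

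Other genes of the pathway were counted in the same way from a list of 35. Of these, 13 act with the receptor or supply its ligand and 22 are further targets. At least 1 site was found at 11 of the 13 and 19 of the 22, against 61.0% of protein-coding genes. A site in all 5 lists was found at 5 of those 11 and 14 of those 19, against 45.7% of genes with a site. Genes without any site were Hsp90aa1 and Ptges3, which encode receptor chaperones, and Hif3a, Pck1 and Trim63, named here after their values were seen. Between WT −Dox and WT +Dox, 7 of the 30 genes with a site had more sites and 8 fewer, against 30.1% and 18.6% of all genes with a site. In mutant cells 26 had more after doxycycline and 1 fewer, against 63.5% and 2.70%. Against WT +Dox, 19 had more and 1 fewer in Mut +Dox (against 40.6% and 12.2%), and 20 had more and 0 fewer with the inhibitor (against 49.0% and 8.29%). In Mut −Dox 0 had more than in WT −Dox and 19 had fewer, against 4.50% and 39.4%. These counts use the full lists, and the shares beside them are not matched for site number. Apart from the wildtype comparison before and after doxycycline, where receptor-complex genes had 1 up and 6 down and targets 6 up and 2 down, the 2 parts of the list had the same direction.

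Among the cofactors and ligand enzymes, Ep300, a histone acetyltransferase that coactivates nuclear receptors, had 3, 0, 0, 2 and 4 sites in the 5 lists. It was thus without a site in Mut −Dox and WT +Dox. Ncoa1, a receptor coactivator, had 2, 1, 1, 3 and 4. Hsd11b1, which regenerates active glucocorticoid, had 3, 1, 3, 3 and 3, and Hsd11b2, which inactivates it, had 4, 4, 2, 2 and 4. Of the 35 genes only Hsd11b2 had fewer sites in Mut +Dox than in Mut −Dox. Cry2, a clock repressor that also binds the receptor and was counted with the further targets, had 3, 3, 2, 4 and 6.

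Among the further targets, Timp3, an inhibitor of metalloproteinases, had the most sites over the lists with 5, 5, 5, 6 and 5. Nfkbia, the inhibitor of NF-κB, had 5, 2, 5, 5 and 5, and its one low list was Mut −Dox. Pdk4, which restrains glucose oxidation, had 4, 1, 4, 7 and 5, and Bcl6, a transcriptional repressor, had 3, 2, 4, 6 and 5. Both were highest in Mut +Dox, as were Anxa1, an anti-inflammatory annexin (3, 2, 3, 5 and 4), and Cavin2, a caveolar protein (1, 0, 2, 4 and 3). These genes were named for large gains in Mut +Dox, so their high counts there follow in part from the choice. Per2 had the same counts as Anxa1 and was left out by the alphabetical tie rule. Lpin1, a phosphatidate phosphatase of fat synthesis, had 0, 0, 2, 3 and 2, so its sites were seen only in doxycycline lists. Ddit4, an inhibitor of mTOR signalling, had 1, 0, 1, 2 and 3.

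Genes on other chromosomes with the most similar counts were sought by the smallest sum of absolute differences over the 5 lists. Counts identical to those of Nr3c1 were found at 2 genes, Txndc11 and Tns4. For Per1, 3 genes had 4 sites in every list, namely Slc25a27, Txnrd2 and Cyp39a1. For Mt1, Ggct, Eef1g and Ube2v1 were identical, for Fkbp5 Itm2b, and for Sgk1 Phip. No gene matched Dusp1, Zbtb16 or Mt2 exactly. Nearest to Dusp1, each with a summed difference of 2, were Fam160a1, Xxylt1 and Gsn (2, 0, 1, 6 and 7), the last encoding the actin-severing protein gelsolin. Nearest to Zbtb16 were Myom1, Serinc5 and Atp2b4, and nearest to Mt2 were Lcn2, Il4i1 and Naif1, each with a difference of 1. Tsc22d3 had too few sites for this comparison.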

How the data were processed

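C/EBPβ ChIP and input DNA from 5 conditions of 3T3-L1 cells were sequenced, 2 libraries for each of 10 groups. Bowtie, bedtools and mm10 are named in the submitters' processing notes, and MACS opens the name of every peak in the deposited lists. The sources used here give no version, calling threshold, use of input or way of joining replicates. The score of each peak is the authors' own, deposited without a header, so its scale is unknown, as is the depth. It was used for ranks and cut-offs inside 1 list at a time.

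Genes and lists were chosen with earlier results of these data known. Peaks were merged at 1 bp overlap and assigned to every protein-coding gene with its span within 50 kb of a peak's midpoint (RefSeq table, GRCm38.p6, 1-based coordinates), with Python 3.11.15, numpy 2.4.6, scipy 1.17.1 and matplotlib 3.10.9. Counting was tested on simulated data with planted sites. Exon and intron classes were not analysed here. Sites named in full were those in all 5 lists and, per comparison, the highest-scoring one in a single list; after their values were seen, the text also gave the other sites of each gene. Pathway genes named were the 4 with the most sites and up to 4 per comparison with the largest difference, ties in alphabetical order. Likeness was computed for members with at least 10 sites summed over the lists, with ties broken by span length. Motifs were searched in RefSeq promoter windows, 250 bases before to 50 after each start; the looser core TTNNGNAA was added after the sequences were seen. Peak sequences were not analysed here. Alternatives were the nearest gene only, windows of 0, 10 and 100 kb, a score of at least 100, lists of equal length, and other merging rules.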

Additional observations from a re-analysis of the deposited data

Results flagged for a closer look

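At 2 genes the full lists held fewer C/EBPβ sites after doxycycline in wildtype cells and more in mutant cells. Of all genes with a site, 18.6% had fewer in wildtype cells and 63.5% had more in mutant cells. The share with both was not counted. At Dusp1 the count went from 2 to 1 in wildtype cells and from 0 to 4 in mutant cells, so the changes differed by 5 sites. At Sgk1 it went from 4 to 3 in wildtype cells and from 2 to 6 in mutant cells, again a difference of 5 sites between the changes. Each condition has 1 list, and the difference was not tested. The wildtype decrease depended on the settings. At Dusp1 the wildtype change was 0 with windows of 10 and 100 kb, with the gene span alone, at a score of at least 100 and at equal list length, where the mutant change was 0 as well. At Sgk1 it was 0 with windows of 10 and 100 kb and with the span alone. The Sgk1 decrease stayed at a score of at least 100 (-1) and at equal list length (-2), where the mutant change was 1. Both genes also had fewer sites in Mut −Dox than in WT −Dox.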

How the results depend on the processing

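In a comparison of 2 lists, an even split was counted as moved. Of 85 alternatives to the main shares, 75 stayed within the interval of the main value, 8 moved and 2 turned direction. Staying inside is a loose criterion, since the intervals are wide, such as 29.9 to 92.5 over 9 sites. Most alternatives also reuse the same sites, so they are no independent checks. Most of the moved and turned values came from cutting every list to its 6898 highest-scoring peaks, which left 22 member sites. Then Mut −Dox held 63.6% of them, Mut +Dox 63.6% and WT +Dox +BYK 59.1%. The second list's share of sites in 1 of a pair became 44.4% from WT −Dox to WT +Dox and 42.9% from WT +Dox to WT +Dox +BYK, both turned. It became 50% (3 of 6) within the mutant line, 50% (2 of 4) from WT +Dox to Mut +Dox, and 42.9% from WT −Dox to Mut −Dox. With lists of equal length such shares lie near an even split over all sites by construction. At equal length the change in sites turned at Fkbp5 within the mutant line (-1), at Nr3c1 (-1) and Zbtb16 (-1) with the inhibitor, and at Zbtb16 from WT −Dox to Mut −Dox (1). With the gene span plus 10 kb, and with the span alone, the share from WT −Dox to WT +Dox was 100%, each time over 4 sites. Of 405 alternatives for single genes, 266 kept their value, 135 moved and 4 turned. No paired analysis was possible because the lists carry no replicate numbers, and for the same reason no replicate could be left out. Depth is unknown, and a site missing from a list may lie below the caller's threshold.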
